A study of Mus musculus with 4 samples.

Results

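Transcripts of 10 genes of PDGF, FGF and HGF signalling were followed in wildtype EpH4, a cell line from mouse mammary epithelium, with and without PM2.5, airborne particles of fine size. The 10 genes, Pdgfa, Pdgfb, Pdgfc, Pdgfra, Pdgfrb, Fgf2, Fgf7, Fgfr1, Fgfr2 and Hgf, were taken by symbol from the deposited count table, which lists 25413 genes. All 10 symbols were found there and all 10 passed the filter on low counts. The 4 libraries were 2 untreated controls and 2 PM2.5 samples from cells in flat (2D) culture. Neither the dose, the length of exposure nor the origin of the replicates is given, and p-values therefore reflect only how much these libraries vary, possibly for technical reasons. The labels name a single batch for every library.

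These families are secreted growth factors that act on receptor tyrosine kinases at the cell surface. PDGF ligands pair into dimers, with PDGF-AA and PDGF-CC acting mainly on receptor alpha and PDGF-BB on both receptors, and they are best known as signals from epithelium or endothelium to receptor-bearing fibroblasts and pericytes nearby. FGF2 and FGF7 act with heparan sulfate on FGF receptors, FGF7 being a stromal factor for the epithelial splice form of FGFR2, and HGF is a stromal factor that drives branching of mammary epithelium through the receptor MET.

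Total counts ran from 18548478 to 26206329 per library. The epithelial label found little support among its markers: of 14 epithelial genes 6, namely Epcam, Cldn4, Esrp1, Krt5, Krt18 and Krt19, had 0 counts in all 4 libraries, and the junction cadherin Cdh1 had 2 to 4 counts per library. Calls of markers are set against the 19.2% of all genes called higher and the 20.4% called lower in the test described below. Of the 3 epithelial genes tested 1 was lower and 1, Grhl2, higher, at 2 and 6 counts in controls and 12 and 19 in PM2.5. Grhl2 passed the filter only through PM2.5. The number higher was 0 with DESeq2, the stricter filter and both fits on log2 RPKM, and 2 with no filter. It also changed with some single omissions, falling without PM2.5 replicate 2 and rising without Control replicate 2 or PM2.5 replicate 1. Krt8, a keratin that was not tested, had 1 and 3 counts in controls and 9 and 20 in PM2.5. The 14 genes summed to 26.3 and 25.4 RPKM in controls and 10.8 and 10.2 RPKM in PM2.5, nearly all of it the basal keratin Krt14 (26.0 and 25.0 against 10.3 and 9.27 RPKM). Vimentin, Vim, a filament protein of mesenchymal cells, stood at 834 and 813 RPKM in controls and at 551 and 569 RPKM in PM2.5. RPKM, deposited by the authors, scales a count to gene length and library size, and levels of different genes are compared on that scale here. Of 15 fibroblast and mesenchymal markers, 12 were tested, with 4 called higher, against 19.2% of all genes, and 6 lower, against 20.4%. Their summed level was 2348 to 2349 RPKM in controls and 1826 to 1896 RPKM in PM2.5. Most of that sum was Vim and S100a4, both called lower, with S100a4 at 1056 and 1077 RPKM against 825 and 841 RPKM. Dcn, among the 4 higher, had 17.4 and 33.1 RPKM in controls and 88.6 and 113 RPKM in PM2.5. The others higher were Col1a1, Col3a1 and Col5a1, and the others lower were Col1a2, Postn, Prrx1 and Zeb1. Without PM2.5 replicate 2 the number higher was 2. The part of these marker shifts in the results on PDGF receptors and HGF was not tested. Summed pericyte and smooth muscle markers held 3.63 to 4.18 RPKM, with 1 of 6 tested called higher, Cspg4, at 1 and 9 counts in controls and 13 and 16 in PM2.5; it passed the filter only through PM2.5. The Cspg4 call ended with DESeq2, the stricter filter, median-ratio size factors, both fits on log2 RPKM, a correction for neighbouring genes and, among single omissions, in each but that of Control replicate 2. Endothelial markers summed to 0.104 to 0.200 RPKM, with 0 of 1 tested called. Hematopoietic markers summed to 5.65 and 6.22 RPKM in controls and 10.2 and 11.3 RPKM in PM2.5, with 1 of 2 tested, Cd68, called higher and the defining Ptprc at 1 to 3 counts. Krt14, Krt8, Grhl2, Vim, S100a4, Dcn, Cdh1, Cspg4 and Cd68 were chosen after their values were seen. In bulk RNA, fewer cells of a type and less RNA per cell cannot be told apart.

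Sequence upstream of 3 start sites is shown because Pdgfa and Pdgfc rose and Hgf fell in PM2.5. Each is the RefSeq sequence of the 250 bases before the most upstream start of the gene, on GRCm38.p6 and written 5′ to 3′ on the strand of the gene. Windows were found for 7 of the 10 genes. Those coordinates are on another build than the GRCm39 positions of the deposited table and are not to be mixed with them. Capitals mark matches on either strand to GCGTG, the core bound by the aryl hydrocarbon receptor, to TGANTCA, an AP-1 site, to GGGCGG, a GC box, to GCGNGGGCG, an EGR1 site, and to the NF-kB consensus.
Pdgfa, chr5:138994945-138995194, minus strand: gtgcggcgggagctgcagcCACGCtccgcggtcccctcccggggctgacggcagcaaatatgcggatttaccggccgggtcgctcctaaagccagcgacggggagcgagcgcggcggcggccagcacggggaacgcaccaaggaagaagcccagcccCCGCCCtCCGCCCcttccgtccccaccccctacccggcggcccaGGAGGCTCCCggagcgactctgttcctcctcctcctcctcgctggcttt
Pdgfc, chr3:81036166-81036415, plus strand: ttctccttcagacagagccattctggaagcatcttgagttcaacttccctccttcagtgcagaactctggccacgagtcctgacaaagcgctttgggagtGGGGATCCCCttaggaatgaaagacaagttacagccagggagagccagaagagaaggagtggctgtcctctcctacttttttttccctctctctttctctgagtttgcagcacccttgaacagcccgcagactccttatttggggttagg
Hgf, chr5:16553245-16553494, plus strand: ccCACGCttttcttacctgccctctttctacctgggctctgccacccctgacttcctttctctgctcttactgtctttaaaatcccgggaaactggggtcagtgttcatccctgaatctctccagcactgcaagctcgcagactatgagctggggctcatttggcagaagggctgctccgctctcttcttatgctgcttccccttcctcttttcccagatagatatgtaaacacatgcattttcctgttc

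The Pdgfa window is rich in G and C, at 72.4%, against 50.8% in each of the other 2 windows. It holds a reverse match to GCGTG from -231 to -227 relative to the start, a pair of reverse GC boxes from -93 to -88 and from -86 to -81, and an NF-kB match from -49 to -40. The Pdgfc window holds 1 NF-kB match, from -150 to -141. The Hgf window holds 1 reverse GCGTG, from -248 to -244. Windows of this length outside chromosome 18 numbered 32851. Among them GCGTG is found in 28.2%, the GC box in 32.7%, the NF-kB consensus in 7.25%, TGANTCA in 6.75% and the EGR1 site in 4.70%. The EGR1 and GC box letters overlap in part. These are matches of letters in these windows, and no binding was measured.

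All 3 PDGF ligand genes rose in PM2.5, by 1.42-fold to 1.84-fold. The receptor gene Pdgfrb fell, Hgf fell 4.58-fold from a low control level, and Fgfr1 fell slightly, a call that ended under 10 of 16 alternatives. Pdgfra, Fgf2, Fgf7 and Fgfr2 were not called. In the test over 12478 genes (edgeR quasi-likelihood with Benjamini-Hochberg adjustment, threshold 0.05), 6 of the 10 were called, against 39.6% of all genes tested. Of the 10, 3 were higher, against 19.2% of all genes, and 3 lower, against 20.4%. The median log2 fold change of the 10 was 0.03, and that of all genes was 0.01. Hgf passed the filter only through the controls, so its fall was favoured by the filter. Groups did not overlap, on scaled CPM (counts relative to library size), for 8 of the 10 genes, against 71.0% of all genes tested. PM2.5 was above in 5 of them, against 35.9% of all genes, and below in 3, against 35.2%.

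**Figure D1:**
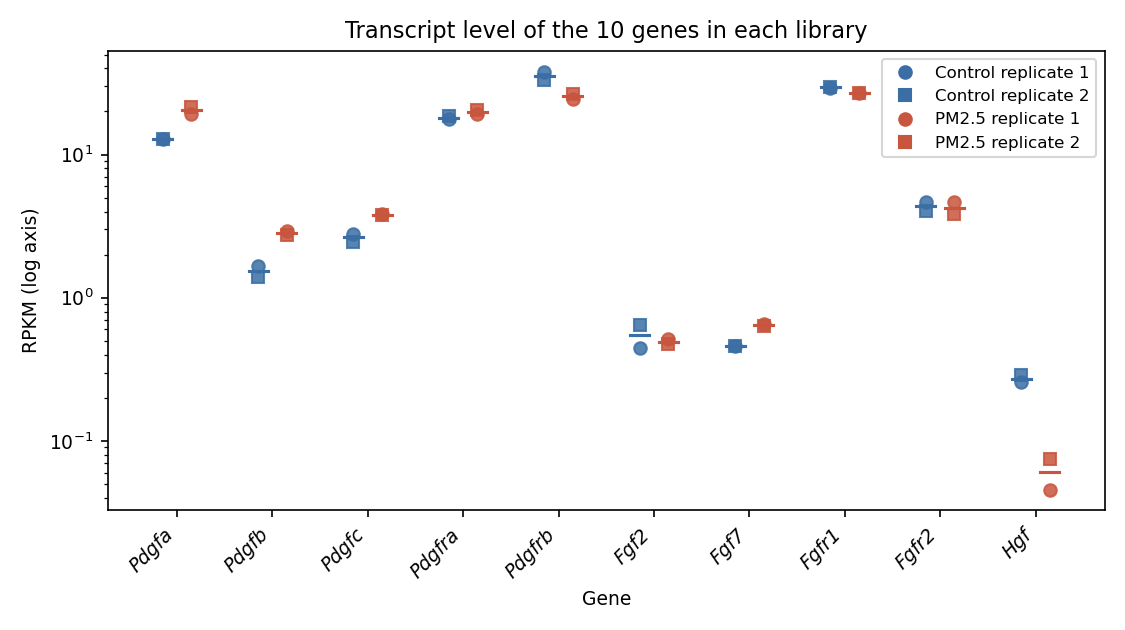
Level of each of the 10 genes in RPKM on a log axis, with 1 point per library (circle, replicate 1; square, replicate 2; blue, control; red, PM2.5) and a line at each group mean of 2. The receptors Pdgfrb, Fgfr1 and Pdgfra lie above 17 RPKM in every library, and Fgf2, Fgf7 and Hgf lie below 1 RPKM in every library.

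Receptor genes led the order of levels in controls. Pdgfrb stood at 35.5 ± 3.46 RPKM (SD, n = 2), followed by Fgfr1 at 29.5 ± 0.157, Pdgfra at 18.1 ± 0.581 and the ligand gene Pdgfa at 12.9 ± 0.0747 RPKM. Fgfr2 at 4.36, Pdgfc at 2.64 and Pdgfb at 1.53 RPKM came next, and Fgf2, Fgf7 and Hgf closed the order at 0.548, 0.460 and 0.272 RPKM. Fgf2 and Fgf7 were the only neighbours in the control order whose libraries overlapped. In PM2.5 the leading pair stood at 26.9 ± 0.163 RPKM for Fgfr1 and 25.5 ± 1.56 RPKM for Pdgfrb, a difference within 1 SD. Pdgfa at 20.4 ± 1.52 and Pdgfra at 19.9 ± 1.08 RPKM overlapped there. Fgfr2 and Pdgfc, at 4.27 and 3.80 RPKM in PM2.5, also differed by less than 1 SD. In controls, where the same pair did not overlap, Pdgfra exceeded Pdgfa 1.41-fold.

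Among ligands, Pdgfa, which encodes the A chain (ENSMUSG00000025856, GRCm39 chromosome 5, 138961769 to 138983125, minus strand), had 12.8 and 12.9 RPKM in controls and 19.3 and 21.5 RPKM in PM2.5. Both PM2.5 libraries lay well above both controls, which were nearly equal. Its log2 fold change in the edgeR test was 0.64 (SE 0.072, adjusted p = 8.73e-05). Pdgfa supplied most of the PDGF ligand transcript, 75.6% ± 2.00 of the summed RPKM of Pdgfa, Pdgfb and Pdgfc in controls and 75.4% ± 1.81 in PM2.5 (SD, n = 2; exact two-sided permutation p = 0.667). The 3 ligands together went from 17.3 and 16.8 RPKM to 26.1 and 28.0 RPKM. That is 1.59 times the control mean, in groups that did not overlap. The exact two-sided permutation p was 0.333, the smallest that 2 against 2 libraries allow. Counted reads of Pdgfa were 54.7% to 56.9% of its total gene reads, a second deposited count. For Pdgfb they were 64.9% to 81.1% and for Pdgfc 81.1% to 84.7%. How this bears on the shares of the 3 ligands was not tested.

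Pdgfb encodes the B chain, the ligand with the widest receptor range (ENSMUSG00000000489, chromosome 15, 79880075 to 79899178, minus strand). It had 1.66 and 1.39 RPKM in controls and 2.91 and 2.76 RPKM in PM2.5. The spread within each group was small beside the gap between the groups, and in the edgeR test its change of 0.88 on the log2 scale (SE 0.147, adjusted p = 0.00104) was the largest rise among the 10 genes. Pdgfc encodes a chain that must be cut by a protease before it binds (ENSMUSG00000028019, chromosome 3, 80943723 to 81121347, plus strand), and it had 2.81 and 2.47 RPKM in controls and 3.83 and 3.77 RPKM in PM2.5. Its groups were also apart, with a log2 difference of 0.51 (SE 0.101, edgeR adjusted p = 0.00276). Genes around Pdgfc leaned the same way: the median log2 fold change of its 50 nearest tested neighbours on each side was 0.11. With these neighbour medians removed from all genes, Pdgfc stood at 0.40 and kept its call (adjusted p = 0.0121).

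**Figure D2:**
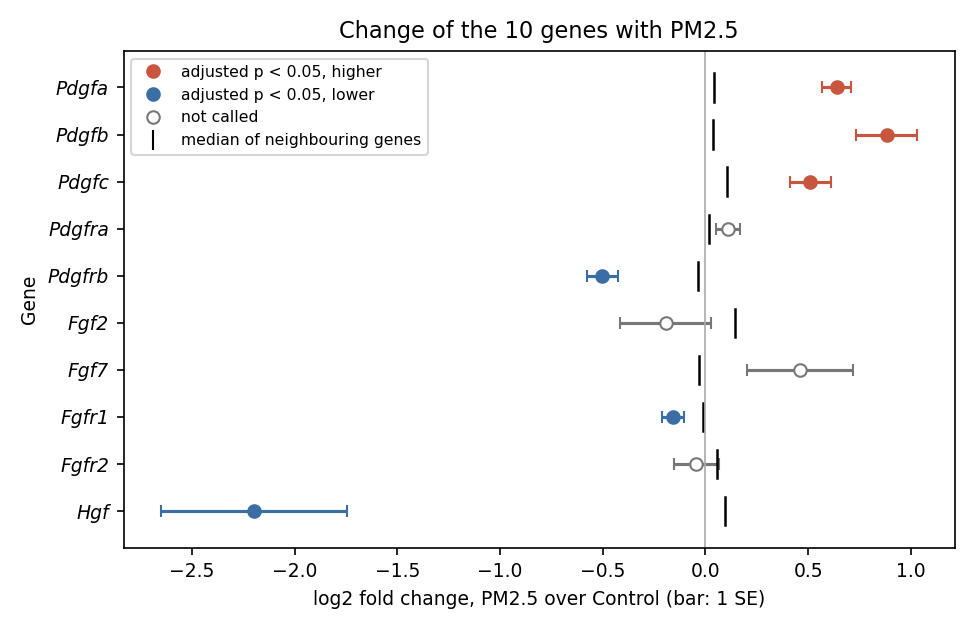
Log2 fold change of each gene, PM2.5 over control, from edgeR on 2 libraries a group; bars are 1 SE, filled points passed the threshold, and black ticks give the median of the neighbouring genes on the chromosome. The 3 PDGF ligands lie between 0.51 and 0.88, Pdgfrb at -0.50 and Hgf at -2.20, while the ticks run from -0.04 to 0.14.

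Of the PDGF receptors, Pdgfrb, the receptor of mural cells and fibroblasts (ENSMUSG00000024620, chromosome 18, 61178222 to 61218133, plus strand), fell. It had 38.0 and 33.1 RPKM in controls and 24.4 and 26.6 RPKM in PM2.5. Every PM2.5 value was below every control, and the controls differed more from each other than the PM2.5 libraries did. The log2 fold change was -0.50 (SE 0.074, edgeR adjusted p = 4.81e-04). Pdgfra, the receptor of mesenchymal progenitors (ENSMUSG00000029231, chromosome 5, 75312953 to 75358876, plus strand), had 17.7 and 18.5 RPKM in controls and 19.1 and 20.6 RPKM in PM2.5. Both PM2.5 libraries were above the controls, but the edgeR estimate, 0.11 on the log2 scale (SE 0.059, adjusted p = 0.175), did not pass the threshold; with scaling to library size only it did, at 0.17 (adjusted p = 0.0404). The share of Pdgfra in the summed RPKM of both receptors was 31.8% and 35.9% in controls and 43.9% and 43.7% in PM2.5. These shares did not overlap, with an exact two-sided permutation p of 0.333, the smallest possible here.

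**Figure D3:**
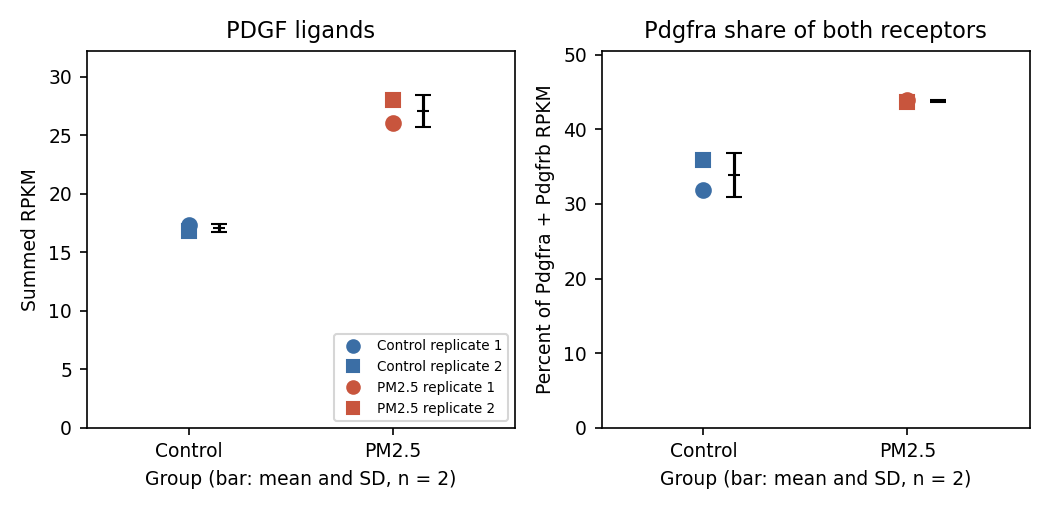
Left, summed RPKM of Pdgfa, Pdgfb and Pdgfc; right, Pdgfra as a percentage of the summed RPKM of Pdgfra and Pdgfrb; each point is a library and the black bars give mean and SD of 2. Ligand sums are 16.8 and 17.3 RPKM in controls and 26.1 and 28.0 RPKM in PM2.5, and the Pdgfra share is 31.8% and 35.9% against 43.9% and 43.7%.

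Other genes tied to PDGF signalling ranged from 0 counts to the level of Pdgfra. Pdgfd, the fourth ligand gene, had 0 counts in every library, and a count of 3, taken as the floor, corresponds to 0.114 to 0.162 CPM. Pdgfrl, a secreted protein resembling the receptor, had 5.78 and 4.84 RPKM in controls and 6.73 and 8.27 RPKM in PM2.5, and was called at 0.48 on the log2 scale (SE 0.143, edgeR adjusted p = 0.0214). Its libraries did not overlap, and the call ended with DESeq2 and without Control replicate 2 or PM2.5 replicate 2 (log2 fold changes 0.34 and 0.33). Nrp1, a co-receptor for several growth factors, rose from 16.4 and 15.4 RPKM to 19.8 and 20.5 RPKM (adjusted p = 0.00321). It lies among genes that were lower in PM2.5, with a neighbour median of -0.28, and went from a log2 fold change of 0.32 to 0.60 with these medians removed.

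Of the FGF receptors, Fgfr1, the form typical of mesenchymal cells (ENSMUSG00000031565, chromosome 8, 26003670 to 26065734, plus strand), was the more abundant. It had 29.4 and 29.6 RPKM in controls and 26.7 and 27.0 RPKM in PM2.5. Replicates were close and the groups apart, by only -0.16 on the log2 scale (SE 0.053, edgeR adjusted p = 0.0389). The call ended under 10 of 16 alternatives, among them DESeq2 (adjusted p = 0.0765), the removal of neighbour medians (adjusted p = 0.0597) and the omission of any single library. Its size moved little in these, to -0.16 with DESeq2, -0.15 with neighbour medians removed and -0.16 with each single omission. The call also ended, at a smaller size, with upper quartile scaling (-0.11), library size only (-0.09) and both fits on log2 RPKM (-0.13 in each). Fgfr2, whose splice forms serve epithelium and stroma (ENSMUSG00000030849, chromosome 7, 129764181 to 132725079, minus strand), had 4.68 and 4.03 RPKM in controls and 4.67 and 3.86 RPKM in PM2.5. Its groups overlapped almost fully, at -0.04 on the log2 scale (SE 0.110, edgeR adjusted p = 0.775). Splice forms cannot be read from counts per gene.

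The interval given for Fgfr2 spans 2960899 bases and overlaps 38 other genes of the table, 21 of them tested. Its counted reads were 18.5% to 26.0% of its total gene reads, a second deposited count that the file headers do not define. For Fgfr1 that share was 88.4% to 91.4%. The Fgfr2 values are therefore uncertain. Fgfr1 made up 86.2% and 88.0% of the summed RPKM of Fgfr1 and Fgfr2 in controls and 85.1% and 87.5% in PM2.5, shares that overlapped (exact two-sided permutation p = 0.667). Fgfr3 had 1 to 5 counts per library, and Fgfr4 had 2 counts in PM2.5 replicate 1 and 0 in the other libraries. Fgfrl1, which lacks the kinase domain, had 6.12 ± 0.115 RPKM in controls and 6.52 ± 0.739 RPKM in PM2.5 (SD, n = 2), with libraries that overlapped between the groups (edgeR adjusted p = 0.632 over all genes).

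The FGF ligands among the 10 genes were low. Fgf2, a ligand without a signal peptide that reaches most FGF receptors (ENSMUSG00000037225, chromosome 3, 37402495 to 37464257, plus strand), had 0.449 and 0.648 RPKM in controls and 0.514 and 0.472 RPKM in PM2.5. Both PM2.5 libraries lay between the controls, with an estimate of -0.19 on the log2 scale (SE 0.220, edgeR adjusted p = 0.516). Control replicate 2 was the high library, and without it the value was 0.11. The gene overlaps Nudt6 on the opposite strand, which held 59 and 94 counts in controls and 92 and 88 in PM2.5, against 67 and 131 and then 82 and 69 for Fgf2. Whether counting used strand is not given in the sources used here, so reads of this gene pair may not be separated.

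Fgf7, the keratinocyte growth factor (ENSMUSG00000027208, chromosome 2, 125876578 to 125933105, plus strand), had 0.458 and 0.462 RPKM in controls and 0.650 and 0.639 RPKM in PM2.5. The groups were apart and the replicates close, but the counts were only 33 and 45 in controls and 50 and 45 in PM2.5. Its estimate of 0.46 on the log2 scale (SE 0.257, edgeR adjusted p = 0.182) was not called. A rise of this size was not resolved from these counts. On total gene reads, of which its counted reads made up 25.0% to 41.2%, the log2 fold change was 0.75 and was called (adjusted p = 0.0139).

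Fgf1 and Fgf10, FGF ligands from the wider lists, moved in opposite directions. Fgf1, which binds every FGF receptor, had 0.457 and 0.694 RPKM in controls and 1.77 and 2.30 RPKM in PM2.5. Its groups were far apart, and it rose by 1.77 on the log2 scale (SE 0.200, edgeR adjusted p = 9.12e-05). Fgf10, a stromal inducer of mammary buds, had 13 and 22 counts in controls and 2 and 4 in PM2.5 (log2 fold change -2.31, SE 0.563, adjusted p = 0.00849). It passed the filter only through the controls. Its call ended with DESeq2 (adjusted p = 0.0692) and in limma on log2(RPKM + 1), where the log2 fold change was -0.16. The call also ended without Control replicate 2 or PM2.5 replicate 1 (log2 fold changes -2.13 and -1.86), and under the stricter filter Fgf10 was not tested. Of the 21 other PDGF and FGF ligand genes listed, 8 had 0 counts in every library and 3 were tested, with 1 higher and 1 lower. Without Control replicate 1 the number higher was 2, and 0 were lower once Control replicate 2 or PM2.5 replicate 1 was omitted. Fgf1, Fgf2, Fgf7 and Fgf10 together summed to 1.74 ± 0.336 RPKM in controls and 3.21 ± 0.353 RPKM in PM2.5 (SD, n = 2), without overlap (exact two-sided permutation p = 0.333). The rise of this sum lay mainly in Fgf1, since Fgf2 overlapped, Fgf7 stayed below 1 RPKM and Fgf10 fell.

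Hgf, the scatter factor (ENSMUSG00000028864, chromosome 5, 16758493 to 16825150, plus strand), had 21 and 32 counts in controls and 4 and 6 in PM2.5, or 0.256 and 0.288 RPKM against 0.0456 and 0.0747 RPKM. Both PM2.5 libraries lay far below the controls. The log2 fold change was -2.20 (SE 0.453, edgeR adjusted p = 0.00351), 4.58-fold lower, and it ranged from -2.57 to -1.88 as each library was left out. With so few counts the counting error alone is 0.497 on this scale, more than the SE of the test. Its neighbours on chromosome 5 had a median of 0.09.

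Met, the receptor of HGF, was abundant and differed little between the groups. It had 18.6 and 16.4 RPKM in controls and 18.6 and 16.9 RPKM in PM2.5, and its estimate of -0.0043 on the log2 scale changed sign with the scaling (SE 0.075, edgeR adjusted p = 0.971). Met transcript exceeded that of Hgf 72.8 and 56.9 times in controls, and 407 and 226 times in PM2.5. Genes that activate HGF or restrain its activation were mostly near 0: Hgfac, St14, Spint1 and Spint2 had 0 to 2 counts per library, named here as a group after their values were seen. Of 7 in that list, which also holds the ligand gene Mst1, 2 were tested and both rose, against 19.2% of all genes called higher. Plau, the urokinase protease, went from 1.46 and 1.13 RPKM to 5.02 and 4.24 RPKM, a rise of 1.83 on the log2 scale (SE 0.169, edgeR adjusted p = 2.52e-05). Mst1, which encodes the HGF-like protein, went from 0.657 and 0.828 RPKM to 2.38 and 2.37 RPKM (adjusted p = 1.64e-04). Mst1r, the receptor of that ligand, had 1 count in PM2.5 replicate 1 and 0 elsewhere.

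Genes acting beside or below the receptors were taken from lists of 113 genes, of which 75 were tested. Of these 26 were higher and 14 lower, or 53.3% called in either direction against 39.6% of all genes tested, and their median log2 fold change was 0.10 against 0.01. Egr1 and Spry4 among the higher and Fgf10 among the lower passed the filter in 1 group only, so the filter favoured these calls. Counts of single lists are set against the 19.2% of all genes called higher and the 20.4% called lower. The number higher was 17 without PM2.5 replicate 2, and 9 were lower when PM2.5 replicate 1 was omitted.

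**Figure D4:**
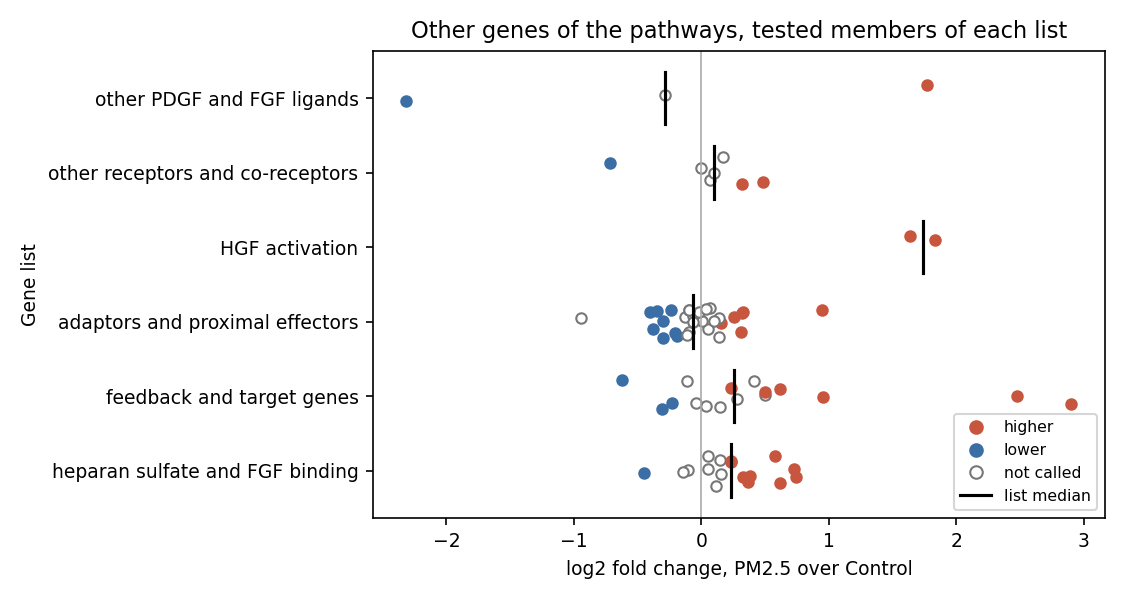
Log2 fold change, PM2.5 over control, of every tested gene in the 6 lists; red points were called higher, blue points lower, open points were not called, and black lines are list medians. Heparan sulfate and FGF binding genes lie mostly to the right of 0, with a median of 0.23, while adaptors and proximal effectors spread on both sides, with a median of -0.06.

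Adaptors and kinases that carry the signal into the cell were called higher in 6 of 30 and lower in 8, with 16 not called, shares near the 19.2% and 20.4% of all genes. Pik3r1, the regulatory subunit of PI3-kinase, rose from 15.4 and 15.6 RPKM to 31.3 and 29.3 RPKM (log2 fold change 0.95, SE 0.058, edgeR adjusted p = 1.90e-06). This was the largest rise of the list. Frs2, the docking protein on which FGF receptors depend, fell from 18.7 and 17.1 RPKM to 13.5 and 14.0 RPKM (log2 fold change -0.40, adjusted p = 8.47e-04). Map2k2, the kinase MEK2, fell from 27.2 and 25.1 RPKM to 21.0 and 19.7 RPKM (adjusted p = 0.00125). In these 3 genes the groups did not overlap. With the neighbour medians removed, 2 genes of the list were higher and 5 lower. The number higher was 3 without Control replicate 1 and 2 without PM2.5 replicate 2, and 5 were lower when PM2.5 replicate 1 was omitted.

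Feedback inhibitors and early targets of ERK signalling were called higher in 6 of 16 tested genes, against 19.2% of all genes, and lower in 3, near the 20.4% of all genes. Spred3, an inhibitor of the RAS to ERK cascade, rose from 2.21 and 2.76 RPKM to 4.29 and 5.59 RPKM (log2 fold change 0.95, SE 0.145, edgeR adjusted p = 5.76e-04). Ier3, an early response gene, rose from 26.0 and 29.9 RPKM to 38.1 and 42.6 RPKM (adjusted p = 0.00120). Groups were apart in both. Egr1, an early transcription factor, had 4 and 6 counts in controls and 23 and 27 in PM2.5 (adjusted p = 0.00168). Spry4, a Sprouty inhibitor of receptor signalling, had 2 and 2 counts in controls and 14 and 14 in PM2.5 (adjusted p = 0.00361). Both passed the filter only through PM2.5 and are among the 6 higher, so that number was favoured by the filter. The FGF-responsive factors Etv4 and Etv5, named after their values were seen, were not called (adjusted p = 0.783 and 0.595). The 3 lower genes, likewise named afterwards, were Spred2, the phosphatase gene Dusp4 and Myc.

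Heparan sulfate, the sugar chain that FGF ligands need on the cell surface, was represented by genes that were called higher in 9 of 17 tested, against 19.2% of all genes, and lower in 1, against 20.4%. Gpc1, a glypican carrier of the chain, rose from 43.6 and 44.6 RPKM to 69.3 and 80.4 RPKM (log2 fold change 0.74, SE 0.070, edgeR adjusted p = 2.84e-05). Sdc4, a syndecan, rose from 56.5 and 65.6 RPKM to 90.0 and 95.8 RPKM (adjusted p = 1.65e-04). Sulf2, a sulfatase that removes sulfate groups from the chain, rose from 49.8 and 46.1 RPKM to 74.7 and 74.4 RPKM (adjusted p = 2.92e-05). In each of the 3 the PM2.5 libraries lay clear of the controls. Fgfbp3, a secreted FGF-binding protein, rose from 3.80 and 4.03 RPKM to 6.99 and 6.19 RPKM (adjusted p = 0.00125). The lower gene was Gpc6, named after its value was seen. The number higher fell without PM2.5 replicate 2, and the number lower rose without Control replicate 2. Summed over the 24 listed genes the level was 396 and 398 RPKM in controls and 500 and 527 RPKM in PM2.5. Flrt2, a membrane protein that binds FGF receptors, fell from 2.13 and 1.87 RPKM to 1.44 and 1.01 RPKM (adjusted p = 0.00455). Among the 7 tested co-receptor and receptor genes it was the 1 called lower, with 2 called higher; that number was 1 without Control replicate 2 or PM2.5 replicate 2.

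**Figure D5:**
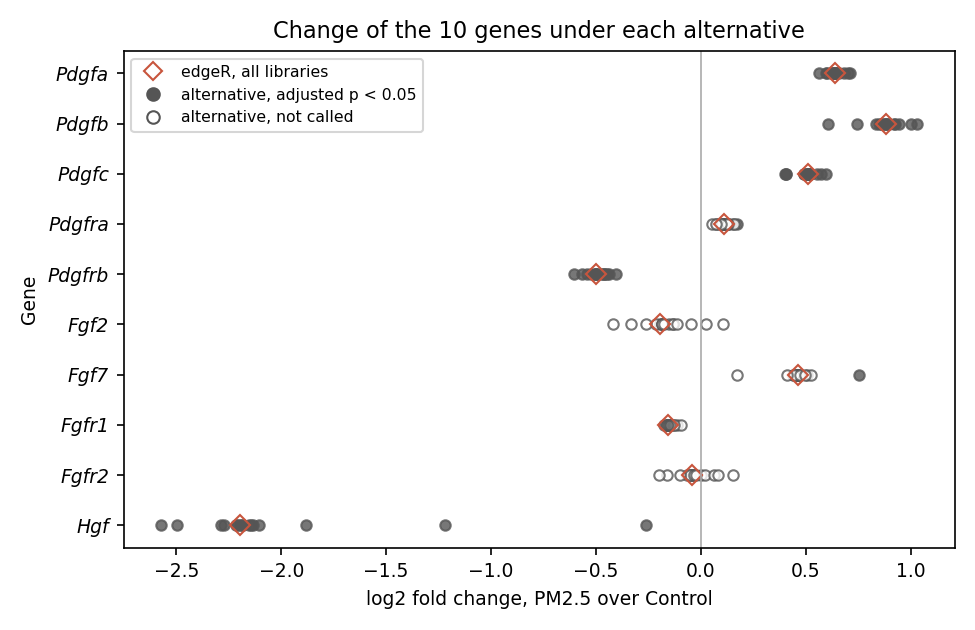
Log2 fold change of each of the 10 genes under 16 alternatives (circles, filled where adjusted p was below 0.05) and in edgeR with all libraries (diamonds). Circles of Pdgfa, Pdgfb, Pdgfc, Pdgfrb and Hgf are filled throughout; those of Hgf run from -2.57 to -0.26, and those of Fgf2 and Fgfr2 lie on both sides of 0.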

How the data were processed

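Polyadenylated RNA of 4 libraries (2 control, 2 PM2.5) was sequenced after a stranded kit with 750 ng of RNA, per the labels' protocols. The authors deposited unnormalized counts for each gene, with RPKM values made from them and a second count, total gene reads, per the file headers. GRCm39 is named in the submitters' processing notes; which aligner, counter and annotation made the counts is not given in the sources used here.

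Counts of all 25413 genes were filtered by filterByExpr (12478 kept), scaled by TMM and tested with edgeR 4.0.16 (estimateDisp, glmQLFit, glmQLFTest) in R 4.3.3, unpaired, with Benjamini-Hochberg adjustment over all genes kept and a threshold of 0.05. Standard errors (SE) were derived from the F statistic of each gene. RPKM is scaled by library size and log2 fold changes by TMM, so they differ slightly. Alternatives used DESeq2 1.42.0 and limma 3.58.1 (on log2 RPKM with a pseudocount of 0.1 or 1). Every gene among the 10 was named, with Met, Pdgfd, Fgfr3, Fgfr4 and Fgfrl1 and up to 4 called genes of smallest p per list. Of the genes this rule picks, 1 is not reported here, and it stays in the list counts. Spry3, a list member, was not analysed here. The fits were tested on simulated data. Members and lists were chosen with earlier results of these data known. Counting error alone limits genes of few reads, which are not independent molecules.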

Additional observations from a re-analysis of the deposited data

How the results depend on the processing

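Across 16 alternatives, 15 planned and 1, the use of total gene reads, chosen after seeing the data, the calls and directions of Pdgfa, Pdgfb, Pdgfc, Pdgfrb and Hgf held in each. Their log2 fold changes ranged from 0.56 to 0.71, 0.60 to 1.03, 0.40 to 0.60, -0.61 to -0.40 and -2.57 to -0.26; the last is on log2(RPKM + 1), a scale that understates changes of low genes. Of 160 values for the 10 genes, 10 lost a call, all of Fgfr1 (adjusted p 0.0161 to 0.189 over its alternatives), and 2 gained one, Pdgfra and Fgf7. Among 20 tested genes of the lists that were named, 8 of 318 values lost a call in the same direction, those of Fgf10, Pdgfrl and Spry4, and 0 called values changed sign. Each library left out in turn, the number of the 10 called higher was 3 and the number lower 2, and the list genes gave 17 to 28 higher and 9 to 14 lower; the cause of these losses was not tested.

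The replicate block, from numbers in the titles, left the 10 genes at 3 higher and 3 lower and gave 30 higher and 14 lower list genes. Same-numbered libraries deviated together at a correlation of 0.19 across genes, but nothing says the numbers pair the samples. Low counts limit Hgf, Fgf7, Fgf2 and Fgf10.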

Other observations

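The share of total gene reads that was counted differed among the genes, and in some it differed between the groups. For Fgf2 it was 89.3% and 87.9% in controls and 74.5% and 73.4% in PM2.5, and for Pdgfb it was 81.1% and 74.6% against 71.2% and 64.9%. In both genes the PM2.5 libraries lay below the controls. They also did in Pdgfc, at 84.7% and 83.5% against 82.7% and 81.1%, and in Fgfr1, Fgfr2 and Pdgfra. Hgf lay above, but on only 4 and 6 total gene reads in PM2.5, all counted, and 22 and 42 in controls. Pdgfa, Pdgfrb and Fgf7 overlapped. What part of all genes separates between the groups on this share was not determined. Summed over all genes the counted part was likewise smaller in PM2.5. It was 19562930 of 21691887 and 26206329 of 29291983 reads in controls, against 20232277 of 22901719 and 18548478 of 20979189 in PM2.5. Pdgfra and Pdgfrb, with 93.4% to 95.7% counted, showed little such difference. On total gene reads Fgf2 had a log2 fold change of 0.02 (edgeR adjusted p = 0.944) and Fgfr2 one of 0.15 (adjusted p = 0.0720), both above their values on raw counts.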
